A study of Mus musculus with 4 samples.

Results

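Bone morphogenetic proteins (BMPs) and their Id target genes were followed across the differentiation of mouse pluripotent stem cells (PSCs) into cardiomyocytes. The genes were chosen by RefSeq identifier, namely the ligands Bmp2 (NM_007553), Bmp4 (NM_007554), Bmp5 (NM_007555), Bmp7 (NM_007557) and Bmp10 (NM_009756), and the targets Id1 (NM_010495), Id2 (NM_010496) and Id3 (NM_008321). All 8 genes were on the array, which held 20886 genes that could be named through RefSeq, and they had 9 of its 39429 probes because Bmp4 had 2 probes. BMP ligands are secreted dimers of the TGF-β superfamily that bind type I and type II serine/threonine kinase receptors, which phosphorylate SMAD1, SMAD5 and SMAD9. These enter the nucleus with SMAD4 and switch on targets, among which the Id genes are the classical immediate ones. Id proteins lack a DNA-binding region and hold back basic helix-loop-helix factors by binding their E protein partners. In the embryo, BMP signals from neighboring tissues are needed for mesoderm formation and for cardiac specification.

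The arrays compared 4 sorted populations, with 1 array each and no replicates. Flk1+ MPCs were the mesodermal precursors at day 4.5 of differentiation without leukemia inhibitory factor. At day 5.5, PCBs were the PDGFRα+Flk1- cardioblasts induced with CsAYTE (Cyclosporin A, Trolox as an antioxidant, EW7197 against ALK5 and Y27632 against ROCK), and sfPCBs were those that formed spontaneously without it. M+CMs were αMHC+ cardiomyocytes at day 10.5, which the study describes as derived from PCBs. The label of their array does not give the treatment. All cells are labelled as embryonic stem cell-derived, and by the methods the sorted Flk1+ MPCs were replated on OP9 stromal feeder cells or on gelatin. DMSO was the vehicle. ALK5 is a TGF-β type I receptor, so EW7197 acts on the branch of the superfamily beside the BMP branch. M+CMs were recognized by GFP under the αMHC promoter, which marks cells that have switched on that promoter. The labels do not name the cell line of each array.

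The defining markers followed the labels in part. The 9 cardiomyocyte genes summed to 11486 (scaled signal) in Flk1+ MPCs, 9537 in sfPCBs and 793180 in PCBs. The M+CM array had a sum of 2.30e+06, with all 9 genes well above background. Myl7 (6095) and Actc1 (4786) were the brightest of them in Flk1+ MPCs. By single genes, sfPCBs had 3 of the 9 at least 2-fold higher than the precursors (Myh7, Tnnt2 and Ryr2). Another 2 were at least 2-fold lower (Myl7 and Myl2), and 4 were within 2-fold. Tnnt2 went from 150.2 in the precursors to 3176 in sfPCBs, and Myl7 from 6095 to 588.2. Pdgfra had a signal of 7237 in Flk1+ MPCs and 3647 in sfPCBs, with 9136 in PCBs and 918.3 in M+CMs, so it was lower in sfPCBs than in the precursors. For Kdr, which encodes Flk1, 1 probe had 54864 in Flk1+ MPCs, 4559 in sfPCBs and 767.8 in PCBs, whereas the other probe had 11263, 6661 and 7272. The 8 stromal or feeder cell markers summed to 2840 in Flk1+ MPCs and 298222 in sfPCBs, with 151378 in PCBs and 29011 in M+CMs. In PCBs, Col1a2 alone had 109298, whereas Postn was not well above background. OP9 cells are of mouse origin and their RNA would hybridize to the same probes. In these bulk samples, fewer cells of a type and less RNA per cell cannot be told apart. Between 73.3% and 76.2% of the spots of an array were well above background.

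Values are the Feature Extraction signal of a probe, scaled so that the 75th percentile of each array equalled 2198, followed by the software's error for that spot. The error covers the spot and its background only, and it does not cover differences between cultures, so no test between populations was possible. All 9 member probes had 1 spot on each array, and none was saturated. The brightest probe of each of the 8 genes was well above background on all 4 arrays. A difference of log2 signals was read against its own error, which lay between 0.20 and 0.28 for the 8 genes, and a neighbor in an order was called distinct only where it differed by more than 2 errors. The median error was 0.20 as well, since for bright probes the software's error was a nearly fixed fraction of the signal. Distinct thus marks a cut in the size of a difference, and not a spread measured between repeats. Levels of different probes depend on the probe, so single probes were not ranked against each other. A sum over the genes of a list weighs its brightest probes most and does not measure the share of a cell type.

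RefSeq promoter windows were found for 5 of the 8 genes (Bmp4, Bmp5, Bmp10, Id2 and Id3, build GRCm38.p6). Those of the 3 genes that were highest in PCBs and well above background by a wide margin are shown, since SMAD complexes act at such regulatory DNA. The 250 bases before the start are given 5′ to 3′ on the strand of the gene, with capitals marking GGCGCC (a GC-rich SMAD1/5 site), GTCT or its reverse complement AGAC (the SMAD box) and CAGCTG (an E-box).
Id2 promoter, chr12:25096093-25096342, minus strand: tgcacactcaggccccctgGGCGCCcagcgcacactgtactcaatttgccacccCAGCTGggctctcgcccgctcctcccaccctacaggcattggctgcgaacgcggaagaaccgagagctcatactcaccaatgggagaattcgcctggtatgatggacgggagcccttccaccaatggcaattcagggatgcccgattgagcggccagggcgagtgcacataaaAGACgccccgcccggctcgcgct
Id3 promoter, chr4:136143572-136143821, plus strand: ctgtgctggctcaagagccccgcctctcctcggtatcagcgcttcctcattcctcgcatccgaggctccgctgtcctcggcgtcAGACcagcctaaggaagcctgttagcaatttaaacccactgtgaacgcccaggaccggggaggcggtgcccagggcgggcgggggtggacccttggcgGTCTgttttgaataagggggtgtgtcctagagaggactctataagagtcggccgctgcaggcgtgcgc
Bmp5 promoter, chr9:75775115-75775364, plus strand: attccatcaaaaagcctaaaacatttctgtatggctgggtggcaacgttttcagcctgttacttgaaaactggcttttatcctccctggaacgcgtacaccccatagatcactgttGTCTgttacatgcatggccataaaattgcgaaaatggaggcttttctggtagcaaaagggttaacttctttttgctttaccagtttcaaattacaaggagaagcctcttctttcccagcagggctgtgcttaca
On both strands of the 32851 windows of 250 bases, GGCGCC was in 9.59%, GTCT in 82.9% and CAGCTG in 4271 of them. The Id2 window held GGCGCC 231 bases before the start, CAGCTG 196 bases before it and AGAC 23 bases before it. That of Id3 held AGAC 166 and GTCT 68 bases before the start, without the other motifs, and that of Bmp5 held GTCT 134 bases before it. The SMAD box occurred in all 5 windows, but most promoters hold these 4 letters. These matches describe the letters in the windows, and binding was not measured. The Id2 and Id3 windows had a GC content of 62.8% each and the Bmp5 window had 42.8%, against a median of 52.4% over all windows.

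Among the targets, Id2 had the widest range. Its scaled signal was 2026 ± 203 in Flk1+ MPCs and 9890 ± 989 in sfPCBs, with 32427 ± 3243 in PCBs and 23801 ± 2380 in M+CMs (error of the software, 1 array each). It was thus lowest in the precursors and highest in PCBs, and each population differed from its neighbor in this order by more than 2 errors. PCBs had 16.0-fold more signal than Flk1+ MPCs (error of the log2 ratio 0.20), sfPCBs 4.88-fold more, and M+CMs 11.7-fold more. Of the 32443 probes well above background on at least 1 array, 8.27% had a range over the 4 arrays as wide as that of Id2.

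Id1 had a signal of 13704 ± 1370 in Flk1+ MPCs and 18839 ± 1884 in sfPCBs, with 30665 ± 3067 in PCBs and 6371 ± 637 in M+CMs. It was highest in PCBs as well, but unlike Id2 it was lowest in M+CMs, 4.81-fold below PCBs. All steps of its order exceeded 2 errors. Id3 had 22028 ± 2203 in Flk1+ MPCs and 32170 ± 3217 in sfPCBs, with 41314 ± 4131 in PCBs and 17351 ± 1735 in M+CMs. Its order was the same as that of Id1 over a narrower range of 2.38-fold, in which PCBs and sfPCBs (log2 difference 0.36, error 0.20) and Flk1+ MPCs and M+CMs (0.34, error 0.20) were not distinct. By signal, all 3 Id genes were highest in PCBs, for Id3 without being distinct from sfPCBs, and second highest either in sfPCBs or, for Id2, in M+CMs. The signal was highest in PCBs for 10.2% of the 32443 probes.

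**Figure D1:**
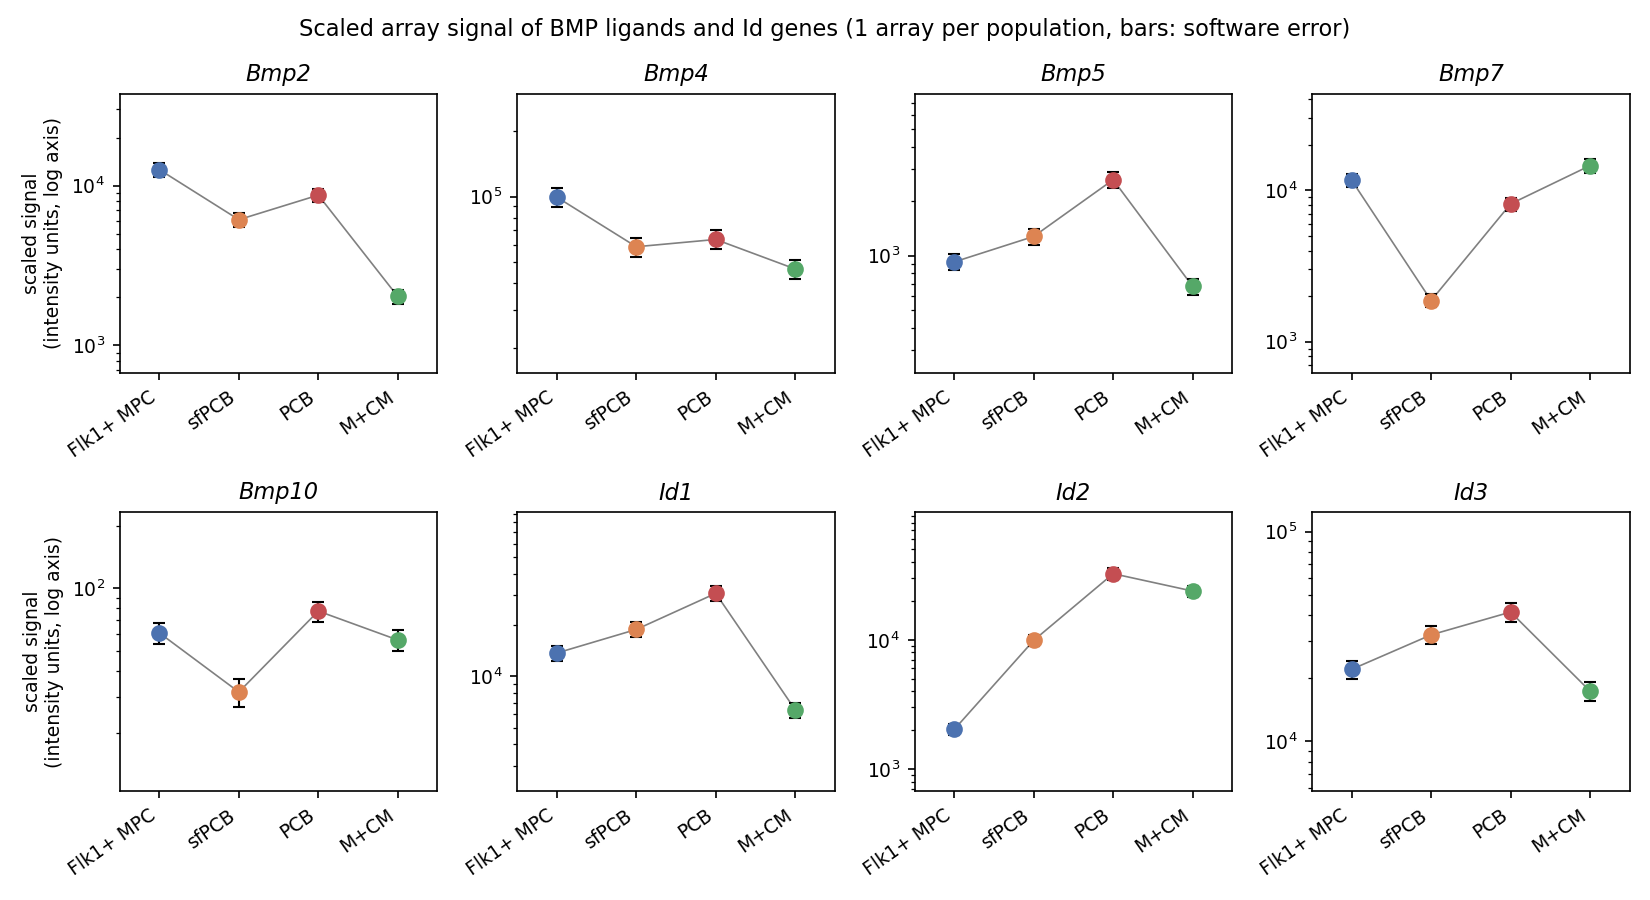
Scaled signal (intensity units, log axis) of the brightest probe of each BMP ligand and Id gene in the 4 populations, with bars for the software's error of the spot (1 array per population). The grey lines join the populations for the eye only, since sfPCBs and PCBs were both sampled at day 5.5, and the signals of Bmp5, Bmp10, Id1, Id2 and Id3 are highest in PCBs, though for Bmp10 (Flk1+ MPCs) and Id3 (sfPCBs) the next population is not distinct.

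The ligands did not share the order of the Id genes. Bmp4, which is required for mesoderm formation, had a signal of 99348 ± 9935 in Flk1+ MPCs and 58732 ± 5873 in sfPCBs, with 63449 ± 6345 in PCBs and 46408 ± 4641 in M+CMs. It was highest in the precursors and within 2.14-fold over all arrays, and PCBs and sfPCBs were not distinct (log2 difference 0.11, error 0.20). The second Bmp4 probe was dim, with 58.0 ± 6.9 in Flk1+ MPCs and 23.9 ± 4.8 in sfPCBs, with 7.7 ± 3.8 in PCBs and 10.4 ± 3.8 in M+CMs, and it was not well above background in the latter pair. By this probe, PCBs were at least 3.73-fold and M+CMs at least 3.79-fold below Flk1+ MPCs, bounds taken against the higher of the array's lowest detected signal and the dim signal itself. Both probes were thus highest in Flk1+ MPCs, and they differed in how far the other populations lay below.

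Bmp2, an inducer of cardiac fate in the embryo, had 12592 ± 1259 in Flk1+ MPCs and 6118 ± 612 in sfPCBs, with 8718 ± 872 in PCBs and 2020 ± 202 in M+CMs. All neighbors in this order were distinct, and M+CMs were 6.23-fold below the precursors. Bmp5 had 923.8 ± 92.5 in Flk1+ MPCs and 1278 ± 128 in sfPCBs, with 2632 ± 263 in PCBs and 676.4 ± 67.7 in M+CMs. Among the ligands with a signal clear of the background, it was the one with the order of Id1 and Id3, highest in PCBs and lowest in M+CMs, and its neighbors were distinct throughout.

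Bmp7 showed another order. Its signal was 11673 ± 1167 in Flk1+ MPCs and 1870 ± 187 in sfPCBs, with 8144 ± 814 in PCBs and 14601 ± 1460 in M+CMs. It was low in sfPCBs alone, 4.35-fold below PCBs and 6.24-fold below Flk1+ MPCs, while Flk1+ MPCs and M+CMs were not distinct (log2 difference 0.32, error 0.20). Bmp10, a ligand of the trabecular myocardium in the embryonic heart, stayed near the background with 60.9 ± 7.1 in Flk1+ MPCs and 31.6 ± 4.9 in sfPCBs, with 77.6 ± 8.6 in PCBs and 56.3 ± 6.7 in M+CMs. It was called well above background on all 4 arrays, whose lowest detected signals were between 15.1 and 15.9, and only sfPCBs were set apart from the next population in the order (log2 difference 0.83, error 0.28). M+CMs and Flk1+ MPCs were not distinct (log2 difference 0.11, error 0.24).

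Between PCBs and Flk1+ MPCs, 3 of the 8 genes were at least 2-fold higher in PCBs (Id2, Id1 and Bmp5), and 0 were at least 2-fold lower. Of the 30811 probes compared, 12.8% were at least 2-fold higher and 12.1% lower. The median log2 ratio was 1.16 for the 3 Id genes and -0.52 for the 5 ligands, against -0.20 for all probes, and the log2 ratio of Id3 was 0.91 (error 0.20). In this comparison the Id genes lay above the median of all probes and Bmp2, Bmp4 and Bmp7 below it, with log2 ratios of -0.53, -0.65 and -0.52. The 3 early mesoderm markers summed to 89812 in Flk1+ MPCs and 47.3 in PCBs. Of the 8 stromal or feeder cell markers, 7 were compared, and all 7 had at least 2-fold more measured signal in PCBs. For Lum, dim in PCBs (30.2) and not well above background in Flk1+ MPCs, the difference was bounded only at 1.89-fold or more. Postn was not compared, as it was not well above background on either array. The part of these markers in the ratios was not tested. The 5 comparisons share arrays, so their values are given side by side and are not independent.

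Against the same precursors, sfPCBs had 1 gene at least 2-fold higher (Id2, 13.1% of all probes) and 2 at least 2-fold lower (Bmp2 and Bmp7, 12.6% of all probes). All 3 Id genes were above 0, with a median log2 ratio of 0.55, and 4 of 5 ligands were below 0, with a median of -0.95 against -0.22 for all probes. All 8 stromal or feeder cell markers were at least 2-fold higher in sfPCBs, and their part was not tested either. Bmp2 was at the edge of the 2-fold limit (log2 ratio -1.04), and its value was -0.70 without scaling of the arrays.

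The direct comparison of PCBs and sfPCBs concerns cells of the same day with and without CsAYTE. By the brightest probes all 8 genes had more signal in PCBs, and 4 were at least 2-fold higher (Bmp7, Id2, Bmp10 and Bmp5) and 0 lower, whereas 6.13% of all 30118 probes were at least 2-fold higher and 7.36% lower. The log2 ratio was 2.12 for Bmp7, 1.71 for Id2, 1.29 for Bmp10 (error 0.28) and 1.04 for Bmp5, and the errors were 0.20 where none is given. Id1 (0.70) and Bmp2 (0.51) were higher by more than 2 errors, but Id3 (0.36) and Bmp4 (0.11) were not. Without scaling of the arrays, the ratio of Bmp4 was -0.04, and with the mean over its probes it was -0.76, while the other 7 genes were above 0 in both cases. A normexp background correction left 2 of the 4 genes past 2-fold, since Bmp10 had a log2 ratio of 0.66 and Bmp5 of 0.97.

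Markers of other cell types differed in the same comparison, although PCBs are defined by a PDGFRα+Flk1- gate, which leaves out Flk1+ endothelial cells. Of the 8 stromal or feeder cell markers, 6 were at least 2-fold lower in PCBs than in sfPCBs, such as Lum with 30.2 in PCBs and 8782 in sfPCBs. Of the 5 endothelial markers, 4 were at least 2-fold lower in PCBs, and Cdh5, Tek and Tie1 had 986.6, 1463 and 270.1 in sfPCBs against 6.5, 40.4 and 4.0 in PCBs, where Cdh5 and Tie1 were not well above background. All 9 cardiomyocyte markers were at least 2-fold higher in PCBs. All 3 early mesoderm markers were at least 2-fold lower in PCBs, such as Eomes with 37.8 in PCBs and 4554 in sfPCBs. T and Mesp1 were not well above background in PCBs. Also at least 2-fold lower were 3 of 6 blood markers, 2 of 3 endoderm markers compared and 2 of 4 pluripotent cell markers, and 0 were higher. With 1 array each, the part of these marker differences in those of the BMP and Id genes was not tested.

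**Figure D2:**
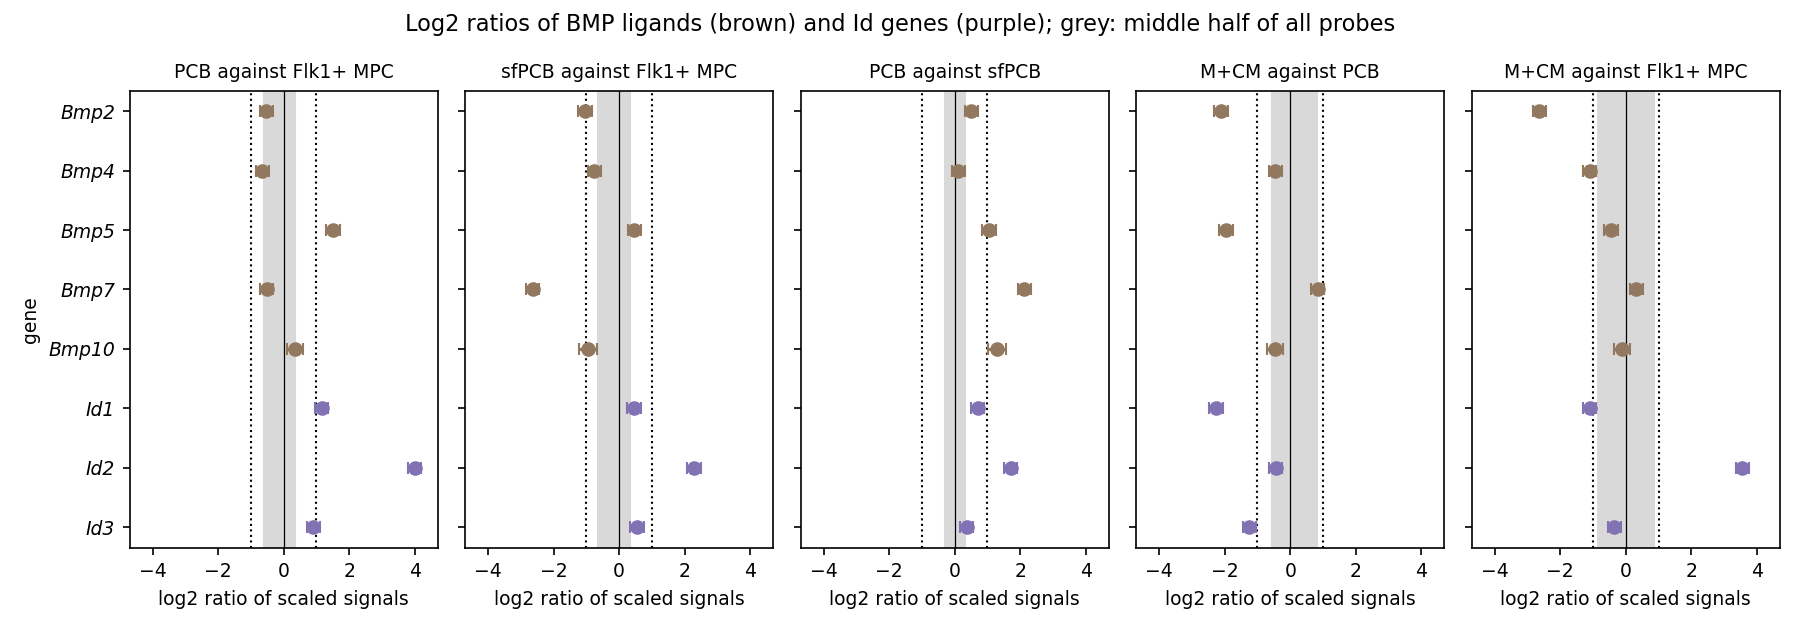
Log2 ratio of scaled signals for each BMP ligand (brown) and Id gene (purple) in the 5 comparisons, with bars for the error from the software's spot errors, dotted lines at 2-fold, and grey bands for the interquartile range of all probes compared. All 8 points lie above 0 for PCB against sfPCB (Bmp4 was at -0.04 without scaling), and 7 of 8 lie below 0 for M+CM against PCB.

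From PCBs to M+CMs, 4 of the 8 genes were at least 2-fold lower (Id1, Bmp2, Bmp5 and Id3) and 0 were at least 2-fold higher. Of the 31132 probes compared, 15.4% were lower and 20.5% higher by that measure, and the median log2 ratio of all probes was 0.15. The log2 ratio was -2.27 for Id1, -2.11 for Bmp2, -1.96 for Bmp5 and -1.25 for Id3. Bmp7 alone had more signal in M+CMs (0.84, error 0.20), and Id2 kept most of its PCB level (-0.45). Against Flk1+ MPCs, M+CMs had 3 genes at least 2-fold lower (Bmp2, Bmp4 and Id1, 21.9% of 31539 probes) and Id2 higher (22.4% of all probes). The ratios of Bmp4 and Id1 (both -1.10) were within 2-fold under quantile normalization, at -0.69 and -0.90.

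The other parts of the pathway were read in 62 genes of 7 lists, with the brightest probe of each gene. Of these genes, 19 had further probes, and for 9 of them a further probe fell on another side of the 2-fold limit in at least 1 comparison. The list counts stand beside the shares of all probes at least 2-fold higher or lower. These were 12.8% and 12.1% for PCBs against Flk1+ MPCs, and 6.13% and 7.36% for PCBs against sfPCBs. For M+CMs against PCBs they were 20.5% and 15.4%. Of 9 other BMP and GDF ligands, 8 were well above background on at least 1 array. Against sfPCBs, PCBs had 2 of the 8 at least 2-fold lower (Bmp6 and Gdf6) and 0 higher, opposite in direction to Bmp5, Bmp7 and Bmp10. The signal of Gdf6, a ligand of skeletal patterning, was 48.2 in Flk1+ MPCs and 374.8 in sfPCBs, with 71.2 in PCBs and 23.5 in M+CMs. Bmp6 had 72.8, 259.8, 99.3 and 21.3 in the same order, so both peaked in sfPCBs. Gdf2 (BMP9, a ligand of the endothelial receptor ALK1) was not well above background in Flk1+ MPCs and exceeded that array by at least 5.66-fold in sfPCBs and by at least 7.42-fold in PCBs. Bmp3, a BMP family member that counteracts the others, was highest in M+CMs with 167.0.

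Of 10 receptors and co-receptors, 0 were at least 2-fold higher and 2 lower in PCBs than in Flk1+ MPCs (Bmpr1b and Eng). In PCBs against sfPCBs, 0 were higher and Eng and Acvrl1 were lower, with log2 ratios of -2.93 and -2.65. These encode endoglin and ALK1, BMP receptors of the endothelium that were well above background on all 4 arrays. Acvr1 was within 2-fold by its brightest probe (log2 ratio -0.98), but lower past 2-fold by its further probe (3535 in sfPCBs, 1722 in PCBs). The summed signal of the 5 endothelial markers was 298.2 in Flk1+ MPCs and 3146 in sfPCBs, with 236.5 in PCBs and 426.0 in M+CMs. Pecam1 alone had 372.6 in M+CMs. The part of endothelial cells in the result was not tested. Bmpr1a, the type I receptor ALK3 of cardiac precursors, had 6381 in Flk1+ MPCs and 5406 in sfPCBs, with 6562 in PCBs and 17410 in M+CMs. Together with Bmpr2, Acvr2a and Rgma it formed the 4 receptor genes whose M+CM signal was 2-fold or more above that of PCBs. By measured signal the other 6 receptor genes were within 2-fold, and the median log2 ratio of the list was 0.11. Bmpr1b, 1 of the 6, was not well above background in M+CMs, so its fall was bounded at 1.93-fold or more. Its further probe had 24.6 in PCBs and 6.1 in M+CMs, past 2-fold.

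The receptor-activated SMADs took different courses. Smad1 had a signal of 3938 in Flk1+ MPCs and 810.8 in sfPCBs, with 596.0 in PCBs and 387.9 in M+CMs. Smad9 went the other way, with 89.6, 144.0, 412.8 and 1818 in the same order, and its log2 ratio of M+CMs to Flk1+ MPCs was 4.34. Smad5 and the shared partner Smad4 stayed within 2-fold in every comparison. The second probe of Smad1 had 1022 in Flk1+ MPCs and between 176.8 and 192.5 in the others, the same direction.

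Of 15 extracellular antagonists and modulators, 13 were compared between PCBs and Flk1+ MPCs, of which 2 were at least 2-fold higher (Nbl1 and Bmp1) and 4 lower (Grem1, Fst, Bmper and Cer1). Bmp1, a protease that cleaves the antagonist chordin and not a ligand, was within 2-fold by 1 of its further probes, with 2095 in Flk1+ MPCs against 1707 in PCBs. Fst, which encodes follistatin, had 6942 in Flk1+ MPCs and 3534 in sfPCBs, with 693.1 in PCBs and 141.3 in M+CMs. Nbl1, a secreted antagonist of the DAN family, had 422.2, 3200.4, 2125 and 4799 in the same order and was lowest in Flk1+ MPCs. Noggin (Nog) stayed within 2-fold of Flk1+ MPCs everywhere, with signals between 323.2 and 591.6. Cer1, an inhibitor of BMP, Nodal and Wnt ligands, was at 577.3 in Flk1+ MPCs and not above background in PCBs, at least 37.1-fold lower. Grem1 had 120.0 in Flk1+ MPCs and was not well above background in sfPCBs and PCBs. In PCBs against sfPCBs, 0 of the 12 antagonists and modulators compared were at least 2-fold higher and 2 were lower (Fst and Cer1). Of all probes, 6.13% were higher and 7.36% lower. The median log2 ratio was -0.44 for the list and 0.03 for all probes. Further probes of Tll1 (250.1 in sfPCBs, 90.4 in PCBs) and Bmp1 (3239 and 1359) were lower past 2-fold, while another of Bmp1 (2401 and 1707) was not.

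**Figure D3:**
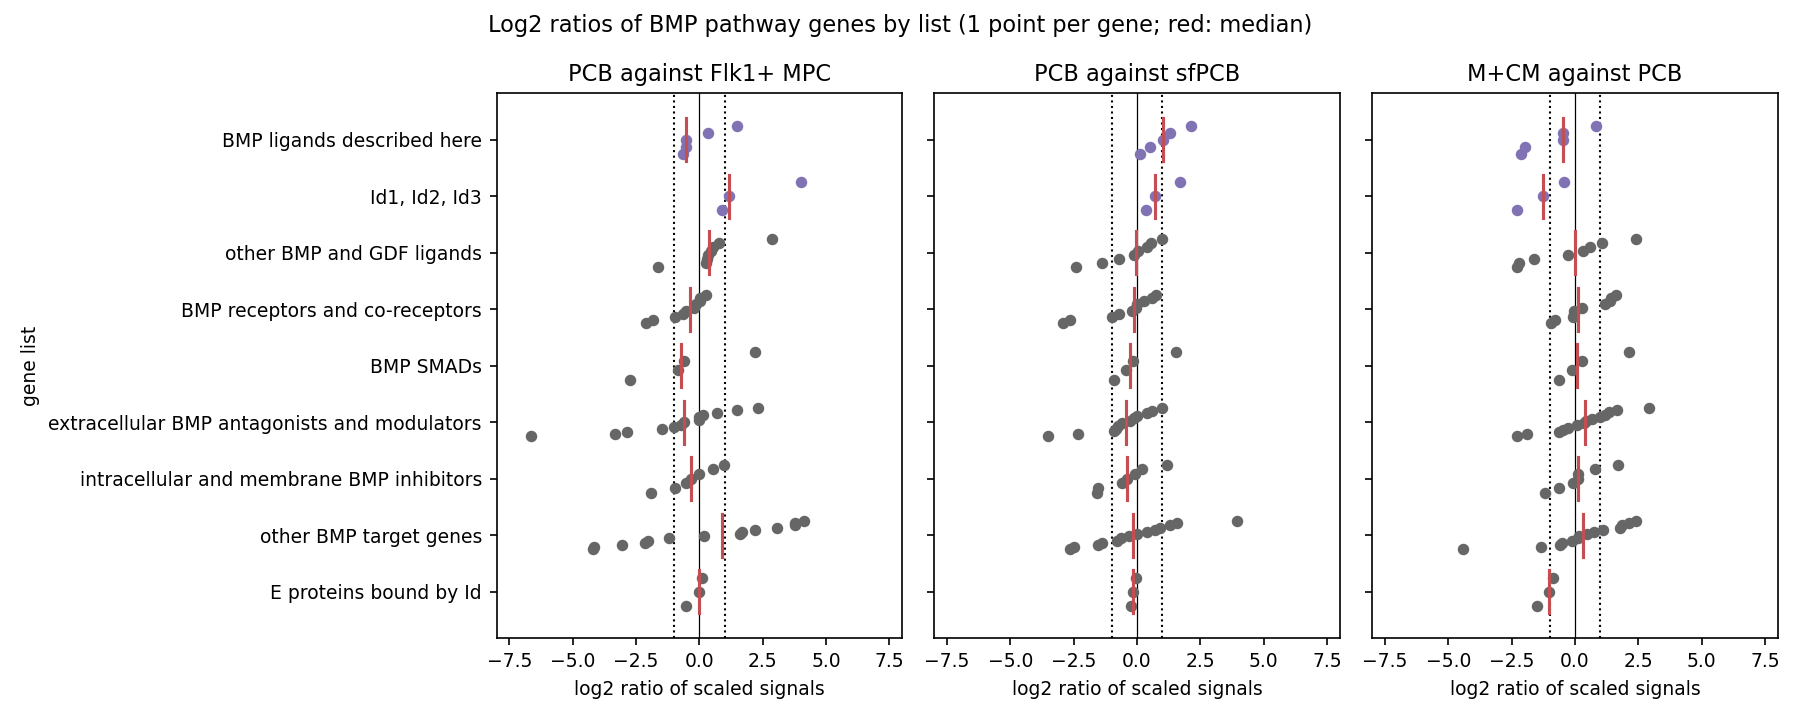
Log2 ratio of scaled signals for the genes of each BMP pathway list in 3 comparisons, with 1 point per gene well above background in at least 1 of the arrays, red bars for list medians and dotted lines at 2-fold. In PCB against sfPCB the medians are 1.04 for the BMP ligands described here and 0.70 for Id1, Id2 and Id3, and those of the other 7 lists lie between -0.44 for the extracellular antagonists and modulators and -0.05 for the other ligands.

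The inhibitors inside the cell and at the membrane, several of which are BMP or TGF-β targets, did not follow the Id genes. Smad6, an inhibitory SMAD and a direct BMP target, had 4630 in Flk1+ MPCs and 3912 in sfPCBs, with 3655 in PCBs and 11959 in M+CMs, so it was highest in M+CMs, where Id1 was lowest. Smad7 and Skil, both known targets of TGF-β signals as well, were at least 2-fold lower in PCBs than in sfPCBs, with log2 ratios of -1.54 and -1.58. Bambi, a decoy receptor, was the 1 gene of the 7 whose measured PCB signal exceeded that of sfPCBs by over 2-fold, but it was dim (29.2 in PCBs) and not well above background in sfPCBs, so that the difference was bounded at 1.93-fold or more.

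The 14 other BMP target genes were split. Between PCBs and Flk1+ MPCs, 7 were at least 2-fold higher and 6 lower, beside 12.8% and 12.1% of all probes. The median log2 ratio of the list was 0.91. The list was also split between the day 5.5 populations. Id4, Atoh8 and Nkx2-5 had more signal in PCBs than in sfPCBs past 2-fold (log2 ratios 1.58, 1.30 and 3.93). Msx1, Tbx3, Hey1 and Hand1 had less past that limit (-1.39, -1.53, -2.50 and -2.66). The remaining 7 genes were within 2-fold, and the median for PCBs against sfPCBs was -0.17, against 0.03 for all probes. Id4, the remaining Id gene, had 489.5 in Flk1+ MPCs and 762.3 in sfPCBs, with 2272 in PCBs and 2464 in M+CMs. It was thus 2.98-fold higher in PCBs than in sfPCBs and, as for Id2, high in M+CMs. Msx1 and Msx2, homeobox targets of BMP in mesoderm, were highest in Flk1+ MPCs, and Msx1 had 23706, 3465, 1326 and 939.8 over the populations in the same order. Tbx3 had 51182 in Flk1+ MPCs and 2768 in PCBs. Nkx2-5, a core cardiac factor, had 656.7, 590.8, 9016 and 47780, a log2 ratio of 3.93 for PCBs to sfPCBs. The probes of Runx2 disagreed in size. The brightest Runx2 probe carries a noncoding RefSeq identifier and was not well above background in Flk1+ MPCs. By this probe, both day 5.5 populations exceeded the Flk1+ MPC array by at least 11.4-fold. Of its further probes, 1 was well above background on all 4 arrays, with 27.8 in Flk1+ MPCs, 50.6 in sfPCBs and 82.3 in PCBs, so that sfPCBs were within 2-fold of Flk1+ MPCs, and the other had 21.8, 63.7 and 78.0.

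The E proteins that Id proteins bind (Tcf3, Tcf4 and Tcf12) stayed within 2-fold in each comparison among Flk1+ MPCs, sfPCBs and PCBs. Tcf3 had 8305 in Flk1+ MPCs and 8477 in sfPCBs, with 8206 in PCBs and 2904 in M+CMs. In M+CMs against PCBs, Tcf3 and Tcf4 were at least 2-fold lower (log2 ratios -1.50 and -1.01) and Tcf12 was at -0.88. The further probe of Tcf4 had 161.3 in PCBs and 135.3 in M+CMs, within 2-fold. The summed signal of the 3 genes was 16490 in PCBs and 7191 in M+CMs.

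**Figure D4:**
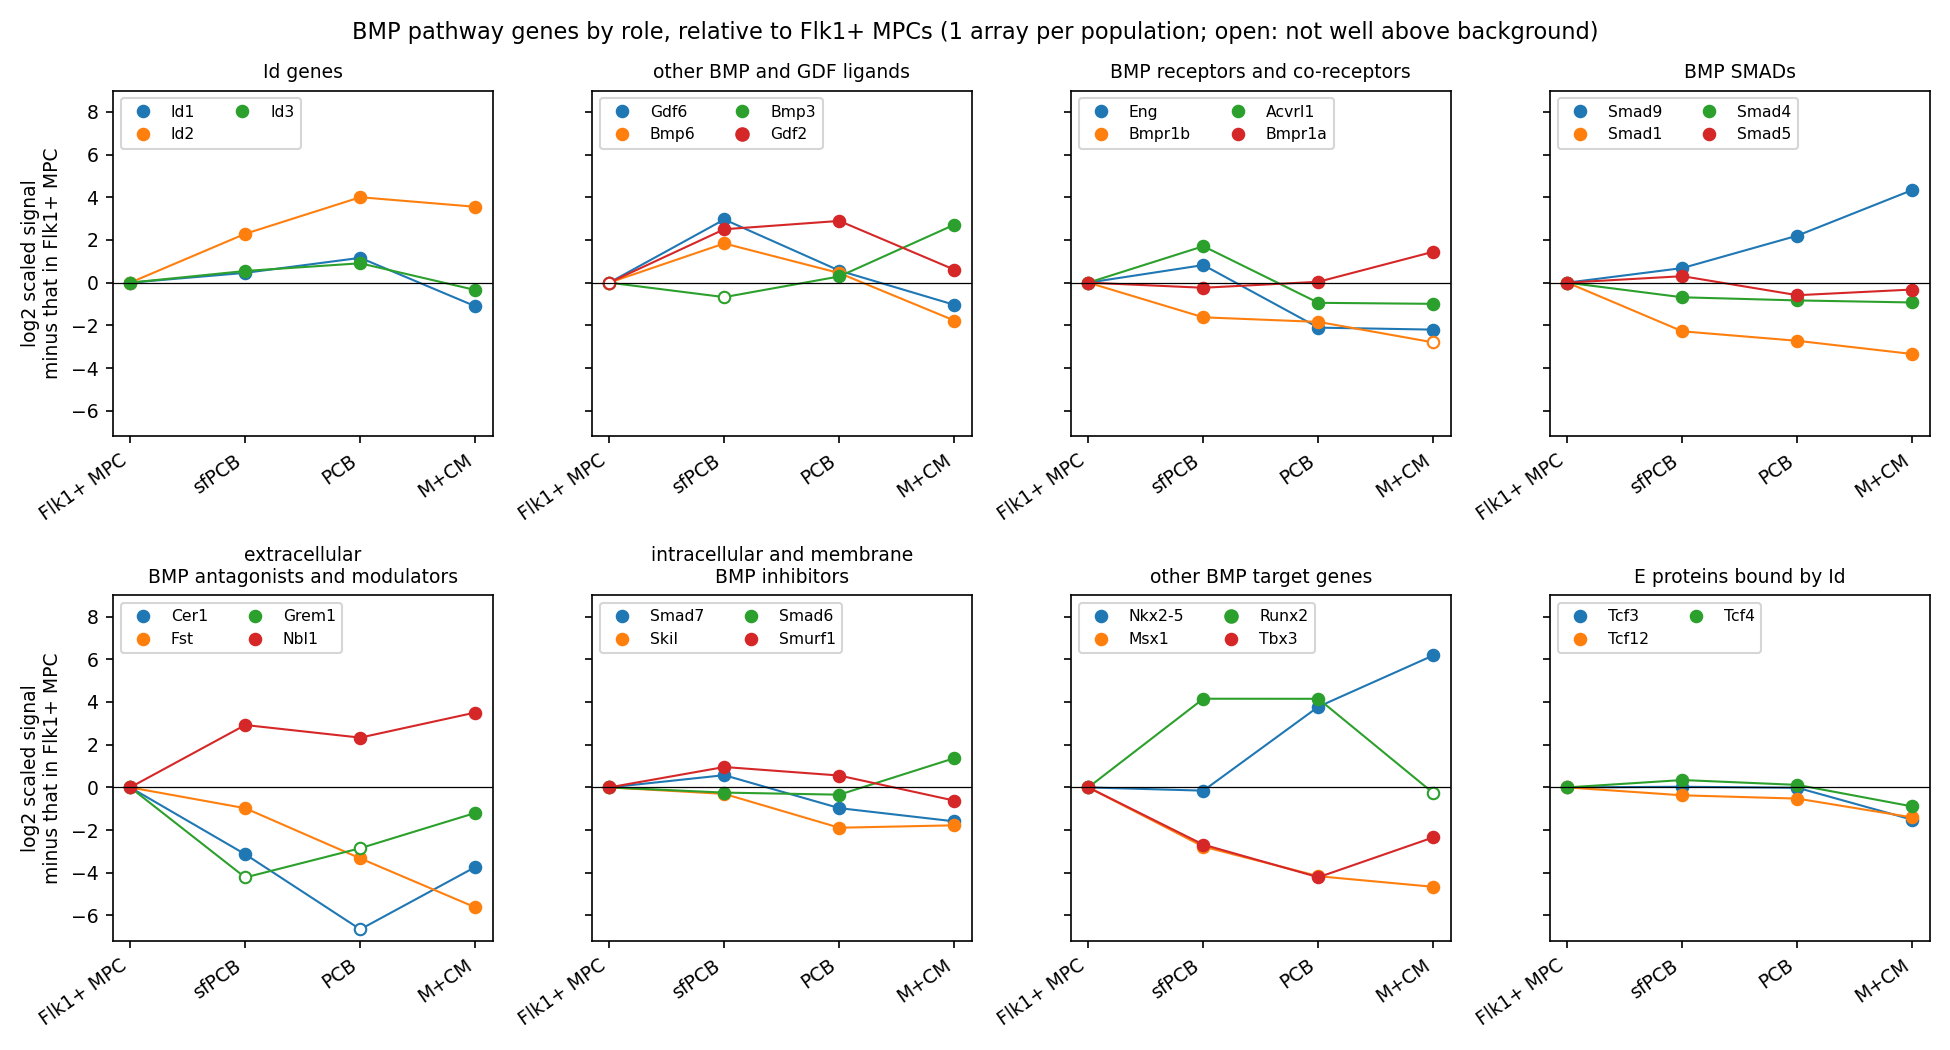
Log2 scaled signal in the 4 populations minus that in Flk1+ MPCs for the Id genes and for up to 4 genes of each pathway list, those with the widest range over the arrays (1 array per population, open circles not well above background, brightest probe of each gene, points coincide at Flk1+ MPCs, where this Runx2 probe was also not well above background). The lines join the populations for the eye only, and Id2, Smad9 and Nkx2-5 lie above their Flk1+ MPC level in M+CMs, whereas Smad1, Fst and Msx1 lie below it.

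Genes with the most similar profile were sought among 22807 probes with a RefSeq mRNA identifier, by the Euclidean distance of mean-centered log2 signals over the 4 arrays. The nearest to Id2 were Sned1 (distance 0.19) and Pcdhac2 (0.25), and 8 probes lay within 0.5. Sned1 had 31.6 in Flk1+ MPCs and 162.8 in sfPCBs, with 521.3 in PCBs and 328.8 in M+CMs. Id1 was nearest to E2f2 (0.15) and Shc2 (0.18), and Id3 to Syne4 (0.09) and Skap2 (0.12). Bmp5 was nearest to Rbks (0.16) and Bhlha15 (0.24), and Bmp2 to Hirip3 and Ppat (0.12 each). The profile of Bmp7 had the fewest neighbors, with 4 probes within 0.5 and Tmem145 (0.42) and Ppil6 (0.43) the nearest. That of Bmp4 had the most, with 2857 probes within 0.5 and Unc119b and Slc25a15 (0.04 each) the nearest, and its range was narrow. Bmp10 was nearest to Sms (0.04) and Frmd4b (0.12). With 4 arrays, such likeness describes these samples only.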

How the data were processed

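The authors deposited the scanned spot intensities of 4 Agilent arrays (1 colour, Cy3, 1 slide), written by Feature Extraction 11.5.1.1, with a background-subtracted signal, its error and quality flags, not normalized between arrays. The design is annotated on mm9 per the file headers, and positions were not used. The deposited log2 value table equalled log2 of this signal, averaged over the spots of a probe, within 1e-06 for 99.7% to 99.8% of probes, with no scaling or centring, and the column medians were 6.88 (Flk1+ MPC), 7.40 (sfPCB), 7.19 (PCB) and 7.16 (M+CM).

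Control spots and outlier spots (between 87 and 144 an array) were left out, arrays were scaled by factors between 0.867 and 1.12, and repeated spots were averaged as log2 values. Detection of a probe required that 0.5 or more of its spots were well above background, and 2 populations were compared over probes detected in either array. Genes were called at 2-fold by their brightest probe. Identifiers were named through RefSeq (GRCm38.p6), which gave probes for 62 of 62 further pathway genes and 42 of 42 marker genes. Each list was described by its counts and by at most 4 genes of the widest range, and each gene studied by its 2 nearest profiles. An item withheld from this report was left out of the lists and is not reported here. Genes given beyond these were chosen after their values were seen. The genes and lists were chosen with earlier results of these data known. With 1 array per population, precision is limited by that number and no test was run. Counting was tested only on simulated 4-fold changes, which does not cover changes near 2-fold or differences between cultures. The alternatives were quantile normalization, no scaling, the percentile over probes detected on all 4 arrays, normexp (offset of 50), detection in both arrays, an offset of 50, the mean over probes, 4-fold, and the value table. Python 3.11.15, numpy 2.4.6, pandas 2.3.3, matplotlib 3.10.9, R 4.3.3 and limma 3.58.1 were used.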

Additional observations from a re-analysis of the deposited data

Results flagged for a closer look

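Bmp10 lay on opposite sides of Flk1+ MPCs in the day 5.5 populations, with a log2 ratio of 0.35 in PCBs and -0.95 in sfPCBs, a difference of 1.29 that was not tested. Its signal was near the background, and PCBs were not distinct from Flk1+ MPCs (error 0.23). The ratios were 0.07 and -0.59 with the normexp correction, and 0.20 and -0.44 with an offset of 50.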

How the results depend on the processing

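No paired analysis was possible because there was 1 array per population, and for the same reason no array could be left out. Of 90 counts of members under the alternatives, 79 were within 1.5 times the main count. The others moved as follows. At 4-fold in place of 2-fold, 1 gene was higher in PCBs than in Flk1+ MPCs (3 at 2-fold) and 1 higher in PCBs than in sfPCBs (4), 1 was lower in sfPCBs (2) and 1 lower in M+CMs than in Flk1+ MPCs (3), and 2 were lower in M+CMs than in PCBs (4). The mean over the probes of a gene made 1 gene lower in PCBs than in Flk1+ MPCs (Bmp4, 0 with the brightest probe). For sfPCBs against Flk1+ MPCs, 1 gene in place of 2 was lower without scaling and 1 with the percentile over probes detected on all 4 arrays. The normexp correction left 2 of 4 genes higher in PCBs than in sfPCBs. For M+CMs against Flk1+ MPCs, 1 gene in place of 3 was lower with quantile normalization and 1 with the percentile over probes detected on all arrays. Of 320 log2 ratios of single genes under the alternatives, 285 moved by less than their error and 0 of those past 2-fold changed sign. Below 2-fold, the sign changed over the scalings for Bmp4 in PCBs against sfPCBs (-0.04 without scaling) and for Bmp10 in M+CMs against Flk1+ MPCs (0.05 with the percentile over probes detected on all arrays, -0.11 before), and with the mean over both Bmp4 probes its PCB to sfPCB ratio was -0.76. Of 630 counts of pathway lists, 553 were within 1.5 times the main count. Scaling moved the balance of all probes called. Without it, the higher probes made up 62.0% of those called between PCBs and Flk1+ MPCs (51.5% with scaling), 70.8% between sfPCBs and Flk1+ MPCs (50.9%) and, for M+CMs against PCBs, 45.6% (57.1%). For PCBs and sfPCBs the share was 35.5% without scaling and 45.4% with it. The dim signals of Bmp10, the second Bmp4 probe, Bambi and Bmpr1b limit what can be read from their ratios.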
